A study of Mus musculus with 10 samples.

Results

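The matrix proteases and their inhibitors were examined in hearts of Rit1 M90I/+ mice given the MEK inhibitor (MEKi) trametinib or vehicle. The members are all protein-coding genes of the deposited table whose symbols name a matrix metalloproteinase (*Mmp*), a tissue inhibitor of metalloproteinases (*Timp*), an ADAMTS protease (*Adamts*) or an ADAMTS-like protein (*Adamtsl*), chosen by name alone. They number 50 of 54532 genes, with 22 MMPs, 4 TIMPs, 19 ADAMTS proteases and 5 ADAMTS-like proteins. All 10 hearts carried a germline Rit1 M90I/+ allele, obtained by crossing conditional Rit1 M90I males to CMV-Cre deleter females, so that the mutation was not limited to cardiomyocytes. The MEKi group (n = 5) was dosed daily with trametinib (1 mg/kg) for 20 weeks, starting when the mice were 4 weeks old, and the vehicle group (n = 5) received the carrier, which held carboxymethylcellulose and a Tween detergent, over the same period. Hearts were collected at about 24 weeks of age after the last dose. The methods name littermates of both sexes, and the labels give no sex for single hearts. No wild-type heart was analysed here, so every comparison is between treated and untreated mutant hearts.

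MMPs are zinc-dependent endopeptidases that are made as inactive precursors and are secreted or anchored in the membrane. Once activated, they cut collagens, proteoglycans, elastin and other proteases. The TIMPs bind the active site of MMPs and block it, and TIMP3 also inhibits several ADAM and ADAMTS proteases. ADAMTS proteases are secreted enzymes that process procollagens, cleave proteoglycans such as versican and aggrecan, or bind fibrillin microfibrils, whereas ADAMTS-like proteins share their ancillary domains and lack the protease domain. RIT1 is a RAS-family GTPase that activates the RAF-MEK-ERK cascade, and several *Mmp* promoters are textbook targets of AP-1, a dimer of FOS and JUN proteins whose synthesis and activity respond to ERK signalling. In the heart, MMPs and TIMPs are made by fibroblasts, endothelial cells, leukocytes and cardiomyocytes and are best known for their part in matrix remodelling.

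The promoter stretches of the *Mmp* cluster are shown first, because they hold the AP-1 letters for which these genes are known. RefSeq promoter windows on GRCm38.p6, reaching from 250 bases before to 50 bases after each gene start, were matched by symbol for 35 of the 50 members. The letters searched were TGAGTCA and TGACTCA, which are reverse complements of each other, so that 1 search covers both strands. They were found in 6 of 35 members (17.1%), compared with 1607 of 27025 genes (5.95%) in the whole promoter set. Among genes that reached 0.5 FPKM on average in these hearts, they were found in 2 of 18 members (11.1%), compared with 4.31% of all such genes. All 6 lie among the 9 *Mmp* genes clustered on mouse chromosome 9 between positions 7272514 and 7699585, and none of the other 26 members with a window held the letters. Members with no window, *Mmp2* and *Mmp9* among them, were not searched. In the lines that follow, each stretch is written 5′ to 3′ on the strand of its gene, with the AP-1 letters in capitals.
Mmp10: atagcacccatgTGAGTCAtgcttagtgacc
Mmp12: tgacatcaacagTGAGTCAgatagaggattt
Mmp13: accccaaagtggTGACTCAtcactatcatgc
Mmp1b: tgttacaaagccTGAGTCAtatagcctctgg
Mmp3: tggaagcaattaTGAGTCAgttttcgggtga
Mmp7: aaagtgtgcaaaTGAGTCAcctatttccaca

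Counted from the gene start, the first capital lies at −63 in *Mmp10*, −44 in *Mmp12*, −35 in *Mmp13*, −93 in *Mmp1b*, −46 in *Mmp3* and −63 in *Mmp7*. *Mmp12* is read here from a RefSeq start that lies inside the deposited gene. Its other window (chr9:7344147-7344446), which spans the deposited start, did not contain the letters. The windows of *Mmp8*, *Mmp20* and *Mmp27*, in the same cluster, did not contain these letters. Such a match is a description of sequence, and factor binding was not measured. Of these 6 genes, *Mmp3* and *Mmp13* had a mean level above 0.5 FPKM in the hearts, and their full windows are given for that reason. The first is *Mmp3* (chr9:7445572-7445871, plus strand) and the second is *Mmp13* (chr9:7272264-7272563, plus strand).
Mmp3: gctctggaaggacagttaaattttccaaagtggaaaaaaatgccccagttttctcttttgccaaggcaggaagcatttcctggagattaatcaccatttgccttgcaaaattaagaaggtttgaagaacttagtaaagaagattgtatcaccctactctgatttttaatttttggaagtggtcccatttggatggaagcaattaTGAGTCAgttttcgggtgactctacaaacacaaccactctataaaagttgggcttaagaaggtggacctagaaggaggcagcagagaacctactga
Mmp13: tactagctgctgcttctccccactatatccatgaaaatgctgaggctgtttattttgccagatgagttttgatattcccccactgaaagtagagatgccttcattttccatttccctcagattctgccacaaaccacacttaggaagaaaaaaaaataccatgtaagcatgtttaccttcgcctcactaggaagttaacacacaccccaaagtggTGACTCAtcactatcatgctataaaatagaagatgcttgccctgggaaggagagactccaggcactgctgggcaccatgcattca

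Expression was given as FPKM, a fragment count scaled by gene length and by sequencing depth, a level which can be compared between genes. The total assigned to genes ran from 13647167 to 18474002 fragments. The library size recovered from the FPKM was not this total. It was 14218190 in vehicle heart 3, with 15371692 fragments assigned, and 17139803 in MEKi heart 1, with 16256252 assigned. How the submitters set that size is not known here. Cardiomyocyte markers, the check of the labelled tissue, were abundant in every heart and summed to between 9843 and 13634 FPKM. Transcripts of the atria (*Sln*, *Myl7* and others) summed to 898, 423 and 740 FPKM in vehicle heart 4, vehicle heart 5 and MEKi heart 2, compared with 13.7 to 59.0 FPKM in the other 7 hearts. Vehicle heart 5 also had the highest summed fibroblast, endothelial, smooth muscle, macrophage and neutrophil markers. *Xist* and the Y-linked transcripts separated the 2 groups exactly, with *Xist* at 5.86 ± 0.671 FPKM (SD, n = 5) in MEKi hearts and near 0 in vehicle hearts. The Y-linked *Ddx3y* was at 11.2 ± 0.714 FPKM (SD, n = 5) in vehicle hearts and at 0 in every MEKi heart. By these transcripts all vehicle hearts were male and all MEKi hearts female. Treatment and sex therefore cannot be told apart in any difference between the groups, on any chromosome. *Timp1* is the only member on chromosome X. In these bulk samples, fewer cells of a type and less RNA per cell cannot be told apart either.

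Inhibitors and a small set of proteases made up most of the expression. Of the 50 members, 25 reached 0.5 FPKM when averaged over all hearts and were tested, namely 10 MMPs, all 4 TIMPs, 7 ADAMTS proteases and 4 ADAMTS-like proteins. The highest was *Timp2*, which inhibits MMPs and also takes part in the activation of pro-MMP2, with a mean of 34.2 FPKM, rank 1108 among all genes. It supplied between 16.9 and 24.8% of the summed FPKM of the members in each heart. *Adamtsl5* (17.8 FPKM), the gelatinase *Mmp2* (17.7 FPKM), the membrane-type protease *Mmp15* (16.0 FPKM) and *Timp3* (11.3 FPKM) followed, then the fibrillin-binding *Adamtsl4* (9.65 FPKM) and *Timp4* (7.17 FPKM). *Adamtsl5*, *Mmp2* and *Mmp15* differed in mean level by less than the spread between hearts, so their order is not resolved. The lowest member tested was the collagenase *Mmp13*, at 0.524 FPKM.

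**Figure D1:**
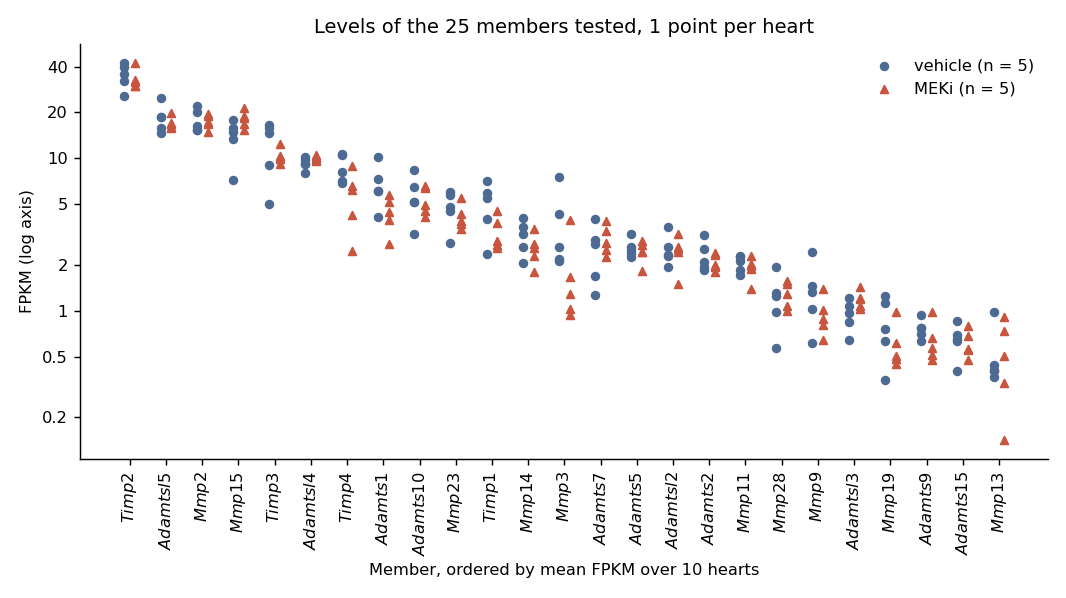
FPKM (log axis) of the 25 members tested in each of the 10 hearts, ordered by mean level, with circles for vehicle and triangles for MEKi hearts. Levels run from *Timp2* at 25.6 to 42.3 FPKM down to *Mmp13* at 0.143 to 0.978 FPKM, and the symbols of the 2 groups overlap for every member.

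The other 25 members fell below 0.5 FPKM on average. Of these, 7 were at 0 in all hearts: *Mmp1b*, *Mmp7*, *Mmp20*, *Mmp21*, *Mmp24*, *Adamts13* and *Adamts16*. A count of 0 allows up to 3 fragments per heart at this depth, and covers counting error only. *Adamts13*, the protease of von Willebrand factor, is known as a liver product, and *Mmp20* as an enzyme of tooth enamel. *Mmp7* encodes matrilysin, an epithelial protease. The 18 members with at least 1 fragment had means between 0.000572 FPKM for *Adamts18* and 0.370 FPKM for the membrane-type *Mmp17*.

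Summed over each family, levels in the groups overlapped. The MMP sum was 50.2 ± 4.15 FPKM (SD, n = 5) without the inhibitor and 50.02 ± 4.77 FPKM (SD, n = 5) with it. TIMPs summed to 60.9 ± 13.3 and 52.7 ± 6.07 FPKM, ADAMTS proteases to 23.0 ± 2.05 and 20.0 ± 2.55 FPKM, and ADAMTS-like proteins to 31.4 ± 4.09 and 30.9 ± 1.36 FPKM, vehicle first. The ratio of the MMP sum to the TIMP sum was 0.856 ± 0.196 in vehicle hearts and 0.958 ± 0.128 in MEKi hearts. The widest spread was among the TIMPs of vehicle hearts, which ran from 41.7 FPKM in vehicle heart 1 to 74.5 FPKM in vehicle heart 5, a range that holds all 5 MEKi values.

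**Figure D2:**
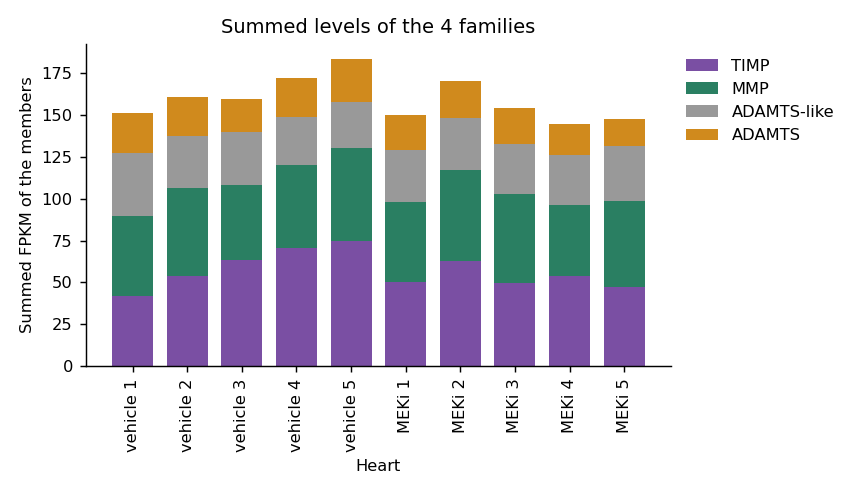
Summed FPKM of the members of each family in each heart, stacked from 0, with 5 vehicle and 5 MEKi hearts. The total runs from 145 FPKM in MEKi heart 4 to 184 FPKM in vehicle heart 5, and the TIMP layer varies most, from 41.7 to 74.5 FPKM.

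The question put to the treated and untreated hearts was whether these genes differed between the groups, which by their transcripts differ in sex as well as in treatment. Limma was run on log2(FPKM + 0.1), with Benjamini-Hochberg adjustment over the 12602 genes tested. At an adjusted p of 0.05, 0 of 25 members passed, against 0.0794% of all genes (10 genes). *Xist* and *Ddx3y* were among the 10, and 0 genes passed once X, Y and mitochondrial genes were left out. The 0 members are therefore not read against the 10. With voom on the recovered fragments, 0 of 25 members passed as well. At an unadjusted p under 0.05 there were 3 members (12%), against 7.62% of all genes, and all 3 were lower with MEKi, against 3.94% of all genes that were lower at this threshold. These were *Mmp3*, *Adamts1* and *Timp4*. For 0 of 25 members were the groups free of overlap, against 1.64% of all genes.

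Members were lower in MEKi hearts in 20 of 25 cases (80%), whereas 47.9% of all genes were lower. On a TPM scale, 15 of 25 members were lower (60%), against 32.6% of all genes, as the median of all genes moved from 0.01 to 0.09 on the log2 scale. The count was 15 of 25 without vehicle heart 5, 16 without MEKi heart 5, 17 without MEKi heart 4, and 18 to 20 when any other single heart was left out. The median log2 fold change of the 25 members was −0.10, compared with 0.01 for all genes tested, and single values ran from −1.07 for *Mmp3* to 0.44 for *Mmp15*. This median is smaller than the spread between hearts. The median deviation of the members from their own means had a pooled within-group SD of 0.13 on the log2 scale, and was 0.32 in vehicle heart 5. The 5 members with a higher mean log2 level in MEKi hearts were *Mmp15*, *Mmp28*, *Adamts7*, *Adamtsl3* and *Adamtsl4*. The median standard error of a member was 0.21 on the log2 scale, wider than the 0.16 over all genes tested.

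**Figure D3:**
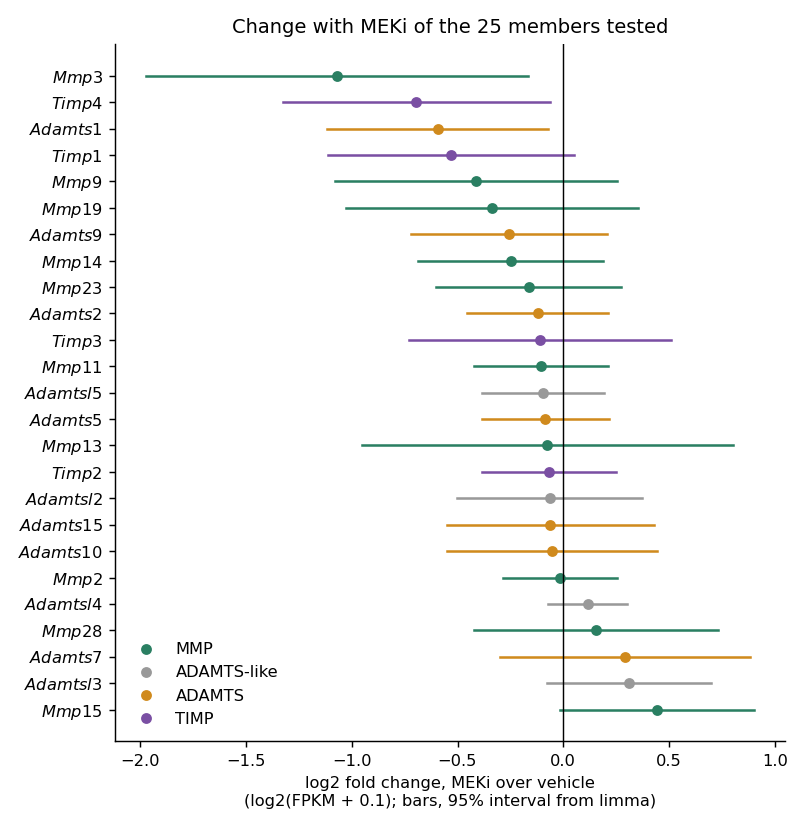
Log2 fold change (MEKi over vehicle, on log2(FPKM + 0.1)) of the 25 members tested, with bars for the 95% interval from limma and colours for the families. Intervals exclude 0 for *Mmp3*, *Timp4* and *Adamts1* only, and no member passed the adjusted threshold.

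*Mmp3* encodes stromelysin-1, which degrades proteoglycans and fibronectin and activates other pro-MMPs. It was at 2.64, 2.12, 2.19, 4.35 and 7.52 FPKM in vehicle hearts 1 to 5 and at 0.939, 3.95, 1.29, 1.02 and 1.66 FPKM in MEKi hearts 1 to 5. Of the MEKi hearts, 4 lay below every vehicle heart, and MEKi heart 2 lay among the vehicle hearts. The means were 3.76 ± 2.28 and 1.77 ± 1.25 FPKM (SD, n = 5 each), and the log2 fold change was −1.07 with a standard error of 0.41 (95% interval, −1.97 to −0.17). The unadjusted p was 0.0242 and the adjusted p 0.569 in limma. The 3 hearts with the highest *Mmp3* were the 3 that were high in atrial transcripts. Leaving them out removes MEKi heart 2, the only MEKi heart among the vehicle hearts, so the groups could then no longer overlap. Without them the log2 fold change was −0.89, with an unadjusted p of 0.00256 and an adjusted p of 0.629 (limma). The hearts left out hold the 3 highest values, which narrows the spread, so nothing is read from the separation or the smaller unadjusted p. Without vehicle heart 5 alone, the log2 fold change was −0.78, with an unadjusted p of 0.0643 (limma).

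*Adamts1*, a protease that cleaves versican and aggrecan, was the second member by p. Its level was 4.14, 6.07, 6.16, 7.37 and 10.2 FPKM in vehicle hearts 1 to 5 and 5.73, 5.17, 3.97, 4.44 and 2.74 FPKM in MEKi hearts 1 to 5. Vehicle heart 1 lay within the MEKi range, and the other 4 vehicle hearts lay above all MEKi hearts. The means were 6.79 ± 2.25 and 4.41 ± 1.15 FPKM (SD, n = 5 each), with a log2 fold change of −0.59, a standard error of 0.24, an unadjusted p of 0.0290 and an adjusted p of 0.591 (limma). Without the 3 hearts high in atrial transcripts, the log2 fold change was −0.39 and the unadjusted p 0.158 (limma). Vehicle heart 5, highest for *Adamts1*, was also highest for endothelial markers, whose part in the result was not tested. With the mean log2 level of the fibroblast markers as a covariate, the log2 fold change was −0.57, with an unadjusted p of 0.0297 (limma).

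*Timp4*, the inhibitor known for its abundance in heart muscle, was at 7.13, 6.87, 10.6, 8.13 and 10.5 FPKM in vehicle hearts 1 to 5 and at 4.23, 6.62, 6.23, 8.89 and 2.46 FPKM in MEKi hearts 1 to 5. All MEKi hearts but MEKi heart 4 lay below all vehicle hearts. The means were 8.65 ± 1.80 and 5.69 ± 2.45 FPKM (SD, n = 5 each), and the log2 fold change was −0.69 with a standard error of 0.29, an unadjusted p of 0.0336 and an adjusted p of 0.606 (limma). MEKi heart 5, the lowest for both *Timp4* and *Adamts1*, also had the lowest summed cardiomyocyte markers (9843 FPKM), and their part in the result was not tested. Without the 3 hearts high in atrial transcripts, the log2 fold change of *Timp4* was −0.70, with an adjusted p of 0.849 (limma). Without MEKi heart 5 alone it was −0.43, with an unadjusted p of 0.0657 (limma).

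**Figure D4:**
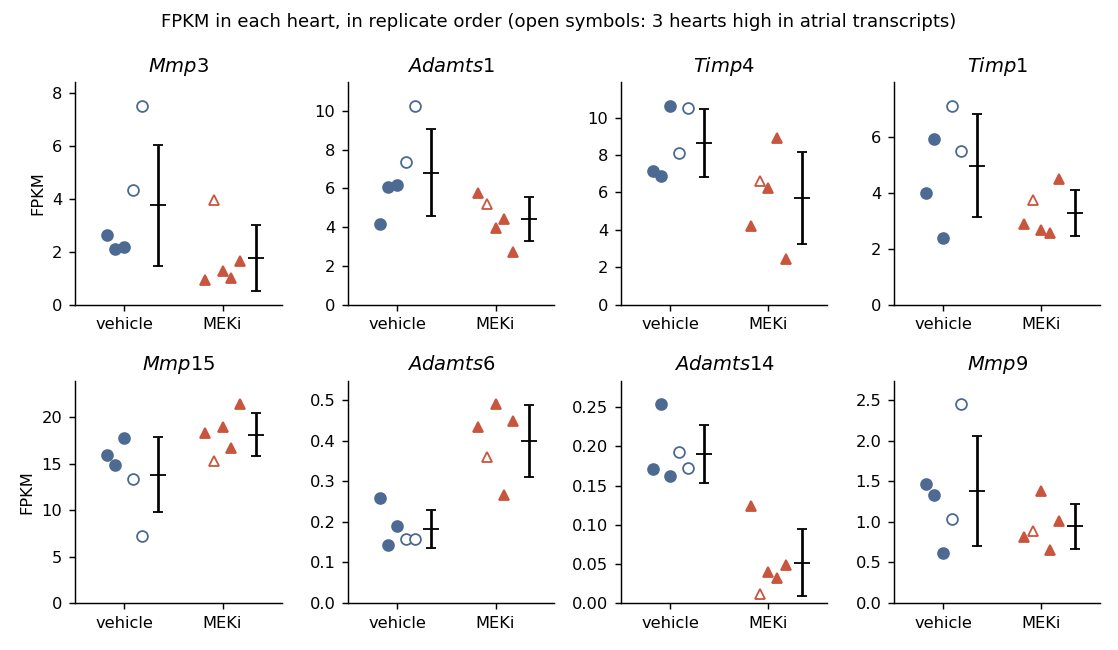
FPKM of 8 members in each heart, with circles for vehicle, triangles for MEKi, open symbols for the 3 hearts high in atrial transcripts, and bars for mean ± SD (n = 5). The open symbols hold the 3 highest *Mmp3* values (3.95, 4.35 and 7.52 FPKM), and the groups separate for *Adamts6* and *Adamts14* but not for the other 6 genes.

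The other 3 inhibitors had groups that overlapped and an unadjusted p above 0.05 (limma). *Timp1*, an inducible inhibitor, was at 4.02, 5.94, 2.38, 7.12 and 5.49 FPKM in vehicle hearts 1 to 5 and at 2.89, 3.74, 2.68, 2.58 and 4.52 FPKM in MEKi hearts 1 to 5. Vehicle heart 3 was the lowest of all 10 and the ranges overlapped, with a log2 fold change of −0.53, a standard error of 0.27 and a 95% interval of −1.11 to 0.05. The unadjusted p was 0.0706 and the adjusted p 0.670 (limma). Over 22 alternatives the log2 fold change of *Timp1* ran from −0.78 to −0.31. Its unadjusted p was under 0.05 in 4 of them, and its lowest adjusted p was 0.294 (limma). *Timp2* was at 25.6, 32.2, 35.8, 39.7 and 42.1 FPKM in vehicle hearts 1 to 5 and at 32.8, 42.3, 31.7, 29.97 and 29.7 FPKM in MEKi hearts 1 to 5. The lowest value was from a vehicle heart and the highest from a MEKi heart, and the log2 fold change was −0.07 (95% interval, −0.38 to 0.25). *Timp3*, which is retained in the matrix, was at 5.00, 9.04, 14.6, 15.9 and 16.5 FPKM in vehicle hearts 1 to 5 and at 10.2, 9.93, 9.17, 12.4 and 10.3 FPKM in MEKi hearts 1 to 5. The vehicle hearts spanned more than a 3-fold range around the MEKi hearts, with a log2 fold change of −0.11 (95% interval, −0.73 to 0.51). The direction for *Timp3* turned to 0.26 without the 3 hearts high in atrial transcripts.

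MMP2, also called gelatinase A, is activated at the cell surface by MMP14 together with TIMP2. *Mmp2* was at 15.3, 20.0, 15.3, 16.3 and 22.1 FPKM in vehicle hearts 1 to 5 and at 16.7, 19.5, 19.0, 14.98 and 17.3 FPKM in MEKi hearts 1 to 5. The groups shared almost the whole range, with a log2 fold change of −0.02 (95% interval, −0.29 to 0.26). *Mmp14* was at 3.55, 3.19, 2.05, 2.60 and 4.05 FPKM in vehicle hearts 1 to 5 and at 2.57, 3.44, 2.75, 1.79 and 2.30 FPKM in MEKi hearts 1 to 5. Its log2 fold change was −0.25, with a standard error of 0.20 and an adjusted p of 0.812 (limma). It was −0.13 without MEKi heart 4, −0.15 without vehicle heart 5 and −0.38 without vehicle heart 3. The second gelatinase, *Mmp9*, which neutrophils and macrophages also make, averaged 1.38 ± 0.680 FPKM in the vehicle group and 0.947 ± 0.277 FPKM in the MEKi group (SD, n = 5 each), with an adjusted p of 0.786 (limma). The highest *Mmp9* (2.45 FPKM) was in vehicle heart 5, where the neutrophil markers summed to 84.3 FPKM, compared with 2.94 to 28.7 FPKM in the other hearts. In that heart *S100a9* was at 65.7 FPKM and *S100a8* at 18.5 FPKM, whereas *Ngp*, *Ltf* and *Camp* were at 0.0562, 0.0598 and 0 FPKM. The sum thus rests on 2 genes. *Ly6g*, a defining neutrophil marker, was at 0 in every heart.

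*Mmp15*, a membrane-type MMP, was the member with the largest higher value in MEKi hearts, and it was named after its values were seen. It was at 15.9, 14.9, 17.8, 13.3 and 7.21 FPKM in vehicle hearts 1 to 5 and at 18.4, 15.3, 19.0, 16.7 and 21.4 FPKM in MEKi hearts 1 to 5. The ranges overlapped, and vehicle heart 5 stood below all the others. The log2 fold change was 0.44 with a standard error of 0.21, an unadjusted p of 0.0569 and an adjusted p of 0.663 (limma), and it was 0.23 without vehicle heart 5. A strong contrast lay within this heart, which was highest of the 10 for 9 of the 25 members, among them *Mmp2*, *Mmp3*, *Mmp9*, *Mmp14*, *Adamts1* and *Timp3*, and lowest for 5, namely *Mmp15*, *Adamts7*, *Adamts15*, *Adamtsl4* and *Adamtsl5*. Vehicle heart 1 was lowest for *Timp2*, *Timp3*, *Mmp19*, *Mmp28* and *Adamtsl3* and highest for 4 other members.

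**Figure D5:**
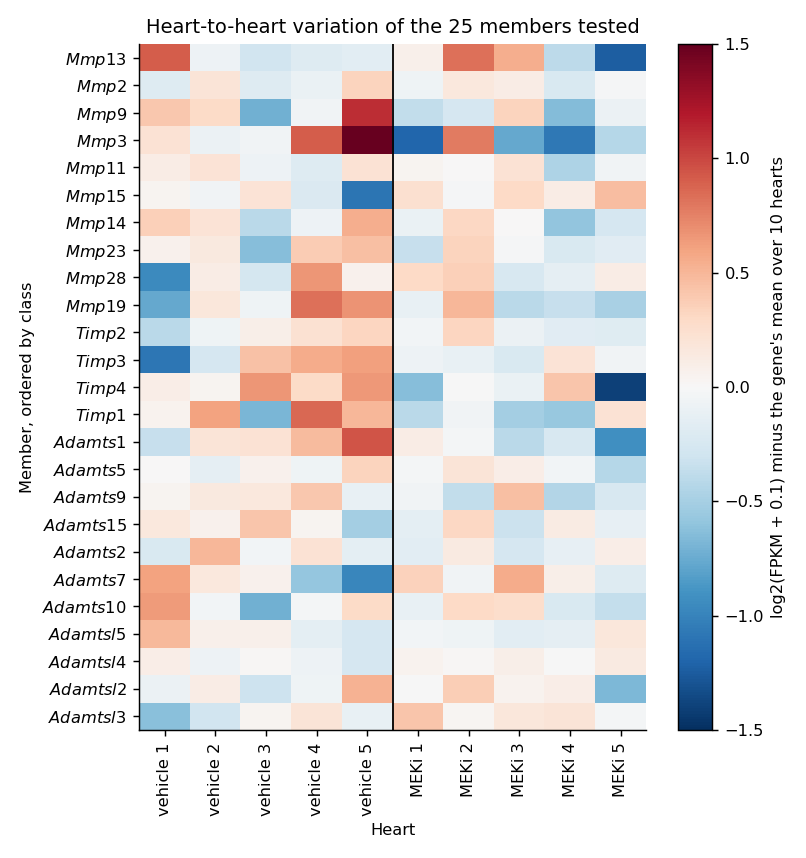
Deviation of each of the 25 members from its own mean over 10 hearts, in log2(FPKM + 0.1), with hearts in columns and members in rows by family and a colour scale cut at its ends. The strong colours of vehicle hearts 1 and 5 run in opposite directions for *Timp3*, *Adamts1*, *Adamts7* and *Mmp19*, so hearts within the vehicle group differ.

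The remaining tested members had adjusted p from 0.715 to 0.974 (limma). Among the MMPs, stromelysin-3 (*Mmp11*) was at 2.05 ± 0.262 and 1.91 ± 0.333 FPKM, *Mmp23* at 4.77 ± 1.27 and 4.16 ± 0.828 FPKM, *Mmp28* at 1.21 ± 0.505 and 1.29 ± 0.246 FPKM, *Mmp19* at 0.829 ± 0.368 and 0.608 ± 0.222 FPKM and *Mmp13* at 0.520 ± 0.257 and 0.527 ± 0.309 FPKM (SD, n = 5 each, vehicle first). *Mmp11* shares 155 exon bases with *Chchd10*, which lies on the opposite strand at a mean of 414 FPKM, and *Mmp19* shares 789 with *Tmem198b*. *Mmp28* shares 466 with *1700020L24Rik*, also on the opposite strand, at a mean of 2.05 FPKM. The strand setting of the counting is not given in the sources used here, so reads from such partners cannot be told apart. The same limit applies to *Timp3*, of whose exon bases 21.3% overlap *Syn3*, although *Syn3* was at 0.03002 FPKM.

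Of the ADAMTS family, the aggrecanase *Adamts5* was at 2.60 ± 0.358 and 2.45 ± 0.394 FPKM, and the procollagen N-proteinase *Adamts2* was at 2.31 ± 0.524 and 2.09 ± 0.262 FPKM (SD, n = 5 each, vehicle first). *Adamts10*, which binds fibrillin-1, was at 5.69 ± 1.91 and 5.32 ± 1.11 FPKM, and *Adamts7*, which cleaves cartilage oligomeric matrix protein, was at 2.53 ± 1.08 and 2.94 ± 0.648 FPKM. The versican-cleaving proteases *Adamts9* and *Adamts15* stayed under 1 FPKM in every heart. *Adamtsl5* was at 18.5 ± 3.86 and 17.1 ± 1.58 FPKM, *Adamtsl4* at 9.27 ± 0.829 and 10.02 ± 0.386 FPKM, *Adamtsl2* at 2.55 ± 0.604 and 2.45 ± 0.611 FPKM and *Adamtsl3* at 0.950 ± 0.219 and 1.19 ± 0.158 FPKM. None of these differences passed the adjusted test.

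Among the members below the filter, 5 had at least 10 fragments in every heart of a group and were put to an exact permutation test of the mean FPKM, two-sided, for which 0.00794 is the smallest p that 5 against 5 hearts allow. *Adamts6*, a protease related to *Adamts10*, was at 0.259, 0.142, 0.189, 0.157 and 0.159 FPKM in vehicle hearts 1 to 5 and at 0.434, 0.359, 0.489, 0.265 and 0.449 FPKM in MEKi hearts 1 to 5. Every MEKi heart was above every vehicle heart, with an exact permutation p of 0.00794, on 16 to 34 fragments per vehicle heart and 37 to 58 per MEKi heart. *Adamts14*, a procollagen N-proteinase like *Adamts2*, was at 0.172, 0.254, 0.162, 0.193 and 0.172 FPKM in vehicle hearts 1 to 5 and at 0.124, 0.0112, 0.0393, 0.0323 and 0.0490 FPKM in MEKi hearts 1 to 5. Every MEKi heart was below every vehicle heart, on 12 to 19 fragments per vehicle heart and 1 to 11 per MEKi heart. *Adamts14* met the minimum of 10 fragments only through the vehicle group, where it is high, so its values are a description and no permutation p is given. Both genes were named after their values were seen.

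Groups did not overlap for 2.27% of all genes that met the same minimum, and for 0.565% of all genes below the filter and above 0. *Adamts6* and *Adamts14* were the members with such groups, 2 of the 18 below the filter and above 0 (11.1%), and nothing is read from a count that *Adamts14* entered through its high group. Across all 24630 genes above 0 in any heart, limma gave *Adamts6* a log2 fold change of 0.82 with a standard error of 0.22 and an adjusted p of 0.587, and *Adamts14* one of −0.98 with a standard error of 0.22 and an adjusted p of 0.493. Over the alternatives, the adjusted p of *Adamts14* ran from 0.128 to 0.869. The exact permutation p was 0.460 for *Mmp17*, 0.341 for *Adamts3* and 0.563 for *Adamtsl1*. *Mmp8*, the neutrophil collagenase, had 0, 7, 0, 3 and 17 fragments in vehicle hearts 1 to 5 and 0 in each MEKi heart, which is too few to test.

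Other genes of pericellular proteolysis, a list of 38 that spans plasminogen activators, serpins, cathepsins, ADAMs and procollagen-processing enzymes, were read beside the members. Of the 26 tested, 0 passed the adjusted threshold and 6 (23.1%) had an unadjusted p under 0.05, against 7.62% of all genes, 4 lower and 2 higher with MEKi (limma). The median log2 fold change of the 26 was −0.08, and 16 were lower. *Plau*, the urokinase that activates plasminogen, was lower, at 3.32 ± 0.571 and 2.22 ± 0.737 FPKM (SD, n = 5 each, vehicle first). The procollagen C-proteinase enhancer *Pcolce* was at 21.2 ± 2.89 and 16.4 ± 1.80 FPKM, and *Serpine2* at 4.73 ± 0.911 and 3.45 ± 0.518 FPKM. The higher pair was *Adam19*, a membrane-bound sheddase, at 1.39 ± 0.342 and 2.32 ± 0.719 FPKM, and the lysosomal protease *Ctsl*. Plasminogen (*Plg*) itself, a liver product, was at 0 in every heart.

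Of 22 matrix substrates of these enzymes, 19 were tested, 0 passed the adjusted threshold, and 6 (31.6%) had an unadjusted p under 0.05 (limma), against 7.62% of all genes. Of the 19, 17 were lower in MEKi hearts, where 47.9% of all genes were lower, and the median log2 fold change was −0.27. The basement membrane collagen *Col4a1* averaged 39.5 ± 4.42 FPKM in the vehicle group and 30.6 ± 2.49 FPKM in the MEKi group (SD, n = 5 each). Its groups did not overlap, as for 1.64% of all genes, with a log2 fold change of −0.36 and an adjusted p of 0.375 (limma). *Col4a2*, *Fbn1*, *Col1a1* and the proteoglycan *Vcan* were also lower at the unadjusted threshold, and *Lum* was higher. *Vcan*, a substrate of ADAMTS1, was at 1.23 ± 0.258 and 0.795 ± 0.248 FPKM, vehicle first. Summed fibroblast markers ranged from 166 to 256 FPKM in vehicle hearts and from 177 to 228 FPKM in MEKi hearts, and 4 of 7 were lower with MEKi at any p. All 5 macrophage markers had a lower mean log2 level in MEKi hearts (median log2 fold change, −0.36), 2 of them at an unadjusted p under 0.05 in limma, and their sums ranged from 99.2 to 175.8 FPKM in vehicle hearts and from 95.6 to 115 FPKM in MEKi hearts. All 4 epicardial markers (median, −1.39) were lower as well, 0 of them at an unadjusted p under 0.05 (limma). Their sums overlapped, at 6.44 to 19.9 FPKM in vehicle hearts and 0.692 to 14.4 FPKM in MEKi hearts. Endothelial markers had 4 lower and 1 higher, and so did the smooth muscle and pericyte markers tested, with 0 at that threshold in either list. Of 6 neutrophil markers, the 2 tested, *S100a8* and *S100a9*, were lower (median, −1.70). *Ngp*, *Ltf* and *Camp* were below the filter, and the means of *Ltf* and *Camp* were higher in MEKi hearts. *Ly6g* was at 0. The part of these cells in the values of the members and substrates was not tested.

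Of 12 AP-1 and ETS factors known to act on *Mmp* promoters, 10 were tested and 0 passed the adjusted threshold, with 1 (10%) at an unadjusted p under 0.05 (limma), against 7.62% of all genes, and a median log2 fold change of −0.09. That gene was *Fosl2*, an AP-1 subunit, which averaged 1.79 ± 0.314 FPKM in the vehicle group and 1.20 ± 0.222 FPKM in the MEKi group (SD, n = 5 each), with log2 fold change −0.54 and an adjusted p of 0.460 (limma). Of the members whose promoter windows hold AP-1 letters, *Mmp3* had the log2 fold change of −1.07 given above, and *Mmp13* had −0.08 (95% interval, −0.95 to 0.80). *Mmp13*, on 6 to 44 fragments per heart, was at 0.978, 0.441, 0.368, 0.403 and 0.411 FPKM in vehicle hearts 1 to 5 and at 0.502, 0.916, 0.739, 0.335 and 0.143 FPKM in MEKi hearts 1 to 5. The other 4 genes with these letters had means below 0.1 FPKM, and *Mmp1b* and *Mmp7* were at 0.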

How the data were processed

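Poly(A)-selected RNA from 10 hearts was sequenced by the study. The submitters' processing notes name fastp, STAR 2.5, HTSeq 0.6.1 and mm10, and the strand setting and annotation release are not given in the sources used here. The authors deposited a single table of FPKM for 54532 genes, with gene lengths and coordinates. Samples were grouped by their labels, and all 10 columns were matched to a heart. FPKM multiplied by gene length came out as whole multiples of 1 step per heart in 100% of values (tolerance 0.1 fragment), which gave the fragments behind each value. Intervals and limits of counts of 0 (3 fragments) cover counting error only.

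A pseudocount of 0.1 was added to the FPKM, and their log2 values were fitted in limma 3.58.1 under R 4.3.3 (eBayes with a mean-variance trend, two-sided). The 12602 genes that averaged 0.5 FPKM or more entered the fit, with Benjamini-Hochberg adjustment over all of them. Fold changes on this scale understate the change of low genes. The labels call the hearts biological replicates. Members below the filter with at least 10 fragments in every heart of a group were compared by an exact permutation test in scipy 1.17.1. Members and gene lists were chosen with earlier results of these data known. Values in every heart are given for members past an unadjusted p of 0.05 and, whatever their values, for *Mmp2*, *Mmp14* and the TIMPs. Other genes given in full are marked in the text as chosen from their values, and *Mmp13* was added as the second measured gene with AP-1 letters. Of the 50 members, 49 have the same coordinates in GENCODE M21 on GRCm38. Promoters are those of RefSeq. A gene of the proteolysis list is counted but not reported here by name. Alternatives were other pseudocounts, filters and scalings, array weights, fibroblast markers as a covariate, the replicate block, voom, and leaving out hearts or the X, Y and mitochondrial genes.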

Additional observations from a re-analysis of the deposited data

Results flagged for a closer look

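Within 60 groups of 5 hearts (30 members, each in vehicle and in MEKi hearts), a heart far from the other 4 of its group was looked for with Dixon's ratio, and 3 were found, where chance alone gives about 3. *Mmp3* in MEKi heart 2 was at 3.95 FPKM, compared with 0.939 to 1.66 FPKM in the other MEKi hearts. *Timp2* in the same heart was at 42.3 FPKM, compared with 29.7 to 32.8 FPKM. *Mmp13* in vehicle heart 1 was at 0.978 FPKM, compared with 0.368 to 0.441 FPKM. MEKi heart 2 is 1 of the 3 hearts high in atrial transcripts (740 FPKM), and the part of atrial tissue in these values was not tested.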

How the results depend on the processing

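No member passed the adjusted threshold in limma under any of the 23 alternatives, with 0 to 7 members at an unadjusted p under 0.05. That count, 3 in the reported analysis, was 5 on the TPM scale and 7 with no filter (adding *Adamts4*, *Adamts6*, *Adamts14* and *Mmp8*). Of these additions, *Adamts4* (0 to 15 fragments per heart) and *Mmp8* (0 to 17) have too few fragments to test. *Adamts14* had 1 to 11 fragments per MEKi heart, so nothing is read from the 7. The count was 1 without the 3 hearts high in atrial transcripts, and 0 to 6 when each heart was left out in turn. It was 0 without vehicle heart 5, 1 without vehicle heart 4 or MEKi heart 1, 5 without vehicle heart 1 and 6 without vehicle heart 3. Members whose groups did not overlap numbered 2 with no filter, 1 without the 3 hearts high in atrial transcripts (*Mmp3*), and 0 to 1 with each heart left out, namely *Mmp3* without MEKi heart 2, *Timp4* without MEKi heart 4 and *Adamts1* without vehicle heart 1. The shares of 7.62% and 1.64% over all genes belong to the reported analysis of 10 hearts. Shares under the alternatives are not given, and groups of fewer hearts separate more easily, so nothing is read from these counts. Among the members whose values are given heart by heart (*Mmp13* aside), the direction of the log2 fold change turned for *Mmp2*, *Timp2* and *Timp3*. *Mmp2* was at 0.062 on the TPM scale, 0.0090 with fibroblast markers as a covariate, 0.016 without the atrial-high hearts and −0.068 to 0.065 with each heart left out. *Timp2* was at 0.012 on the TPM scale, 0.0055 without the atrial-high hearts and −0.17 to 0.0050 with each heart left out. *Timp3* was at 0.26 without the atrial-high hearts and −0.40 to 0.030 with each heart left out. The median of all genes moved from 0.01 to 0.086 on the TPM scale, so the TPM values of *Mmp2* and *Timp2* moved about as far as all genes did. The cause of the other turns was not tested. The log2 fold change of *Adamts14* was −2.08 with voom and −0.18 with a pseudocount of 1. Over all genes the count called, 10, was 18 with array weights, 4 with the replicate block, 5 without the atrial-high hearts, 5 without vehicle heart 2 and 0 without X, Y and mitochondrial genes.

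Hearts with the same replicate number did not vary together (correlations of −0.15 to −0.02), so the numbers do not pair them. With the replicate block, 0 members passed the adjusted threshold and 3 had an unadjusted p under 0.05, *Mmp3*, *Timp1* and *Timp4*. Low depth limits the members below 0.5 FPKM, and 5 hearts a group leave 95% intervals up to −1.97 to −0.17 on the log2 scale, as for *Mmp3*.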
